A study of Mus musculus with 15 samples.

Results

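The 9 genes Pdgfra, Dpt, Pi16, Clec3b, Serpinf1, Islr, Twist2, Prrx1 and Fap are markers and regulators of dermal fibroblasts other than collagens. They were followed across whole mouse skin in 4 groups of a sclerodermatous graft-versus-host disease experiment. They were taken from the deposited count table by Ensembl identifier. All 9 were found among its 56059 genes, and all 9 passed the filter on low counts that left 18651 genes to be tested. RNA sequencing covered 15 libraries. Syngeneic vehicle (4 libraries) was skin of mice given a syngeneic bone marrow graft and 0.4% methylcellulose by mouth, and Allogeneic vehicle (3 libraries) was skin after an allogeneic graft with the same vehicle. The allogeneic mice of both other groups received Wnt-C59 at 5 mg/kg (4 libraries) or Wnt-C59 at 5 mg/kg together with belumosudil at 150 mg/kg (4 libraries). All groups were transplanted, and dosing was daily, starting on day 21 and ending on day 49 after transplantation. Wnt-C59 blocks the acyltransferase porcupine, without which Wnt proteins are not lipidated and released. The conditioning of the mice, their strain, sex and age are not given in the sources used here, nor is it stated that each library came from a separate mouse, so p-values measure the spread between these libraries. In bulk skin, fewer fibroblasts and less RNA per fibroblast cannot be told apart.

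Fibroblasts of the dermis make and remodel its matrix, and in chronic graft-versus-host disease of the skin they are the cells that lay down scar-like tissue. Pdgfra encodes the alpha receptor for platelet-derived growth factor, which fibroblasts carry on their surface. Dpt (dermatopontin) and Clec3b (tetranectin) are extracellular proteins, Pi16 is a peptidase inhibitor that marks fibroblasts of the adventitia and fascia, Serpinf1 is the secreted factor PEDF, which restrains vessel growth, and Islr (meflin) is a membrane-anchored protein of mesenchymal cells. Twist2 and Prrx1 are transcription factors of the mesenchyme, of the basic helix-loop-helix and the paired homeobox class. Fap is a cell-surface serine protease best known from activated fibroblasts.

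Windows upstream of the transcription start are shown for 3 members that rose in treated skin (Dpt, Serpinf1 and Twist2) and for the members Pdgfra and Prrx1, which passed no test in any comparison. The RefSeq promoter table for build GRCm38.p6, which is not the study's build GRCm39, held 7 of the 9 members, with no entry used for Clec3b and Fap. Each window reads 5′ to 3′ on the strand of the gene and ends at the start, or further upstream where an annotated exon of the same gene lies closer to it. Capitals mark the E-box CANNTG, which basic helix-loop-helix proteins such as TWIST2 can bind, the CCAAT box, and the homeodomain motif TAATTA. Dpt lies on the plus strand (chr1:164796413-164796643), Serpinf1 on the minus strand (chr11:75422702-75422873), Twist2 on the plus strand (chr1:91801211-91801460), Pdgfra on the plus strand (chr5:75152001-75152250) and Prrx1 on the minus strand (chr1:163313711-163313900).
Dpt: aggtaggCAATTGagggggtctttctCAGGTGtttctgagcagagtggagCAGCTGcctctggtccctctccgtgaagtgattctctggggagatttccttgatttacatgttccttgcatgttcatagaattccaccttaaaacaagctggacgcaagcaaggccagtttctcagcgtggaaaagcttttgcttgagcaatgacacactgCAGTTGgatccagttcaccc
Serpinf1: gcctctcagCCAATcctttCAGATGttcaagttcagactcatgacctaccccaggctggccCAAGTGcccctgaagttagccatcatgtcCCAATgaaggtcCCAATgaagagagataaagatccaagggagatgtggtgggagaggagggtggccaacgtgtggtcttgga
Twist2: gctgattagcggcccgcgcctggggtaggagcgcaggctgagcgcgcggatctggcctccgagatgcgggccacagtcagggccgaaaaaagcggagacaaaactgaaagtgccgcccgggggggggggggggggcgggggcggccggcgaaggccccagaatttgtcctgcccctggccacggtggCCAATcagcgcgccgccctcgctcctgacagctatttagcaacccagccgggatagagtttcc
Pdgfra: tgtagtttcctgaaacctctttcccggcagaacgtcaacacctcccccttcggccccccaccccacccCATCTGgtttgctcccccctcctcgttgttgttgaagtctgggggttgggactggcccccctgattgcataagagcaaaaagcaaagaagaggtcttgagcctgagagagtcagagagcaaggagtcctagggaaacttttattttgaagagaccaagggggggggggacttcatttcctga
Prrx1: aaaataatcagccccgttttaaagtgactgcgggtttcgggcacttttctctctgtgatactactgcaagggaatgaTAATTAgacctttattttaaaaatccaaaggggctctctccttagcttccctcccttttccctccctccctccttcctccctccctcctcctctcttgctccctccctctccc

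Both strands of the 250 bases before the start were searched in the 7 members and in 32851 promoters of the same table. CANNTG was found in 4 members, with 6 matches for Dpt, 4 for Serpinf1, and 1 each for Pdgfra and Islr, and 66.2% of all promoters held it. CCAAT was found in 3 members, with 3 matches for Serpinf1 and 1 each for Pi16 and Twist2, against 33.8% of all promoters. The only TAATTA match lay 173 bases before the start of Prrx1 (4.84% of all promoters). No member held TATAAA (12.4% of all promoters) in this window, nor the TCF/LEF core CTTTGA (13.8%). The E-box form CATATG (3.46%), which overlaps the first motif searched, was not found in any member either. The AP-1 motif TGANTCA (6.75%) was also not found in any member. Part of the matches of Dpt and Serpinf1 lie nearer the start than the stretches shown. None of these motifs stood in all 5 windows searched of the members that rose in both treated groups. Such matches describe letters only.

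Libraries held 16.3 to 20.4 M (mega) counts in the vehicle groups and 19.0 to 28.8 M in the treated groups, and the lowest count of any of the 9 genes in any library was 89 (Fap). Treated and vehicle libraries differed in technical measures, and no label gives a batch, so treatment and a batch with the same split cannot be told apart. Malat1, a nuclear RNA, lay between 1071 and 3501 CPM (counts-per-million values) in vehicle and between 65.05 and 136 CPM in treated libraries. Values that were not whole numbers made up 31.1% to 34.4% of the non-zero values in vehicle libraries and 44.8% to 60.6% in treated ones. Library 5 of the combination stood apart with a summed level of 10 skeletal muscle markers of 23.8 CPM, against at least 2716 CPM in every other library. Without it, each comparison of the combination with a vehicle group called the same 6 of the 9 genes as with it.

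The 9 genes were present in every library at very different levels. Per kb of the longest transcript, syngeneic skin held 84.4 ± 22.7 CPM of Dpt (SD, n = 4), 57.7 ± 32.8 of Clec3b, 41.8 ± 21.7 of Pi16 and 41.1 ± 19.7 of Serpinf1. These levels overlapped between neighbours in the order. Prrx1 followed at 11.6 ± 4.14 CPM per kb, then Fap at 6.52 ± 0.497, Islr at 6.29 ± 2.20, Pdgfra at 5.75 ± 2.14 and Twist2 at 4.96 ± 1.87, and the last 4 differed by less than their spread. In allogeneic skin Pi16 dropped out of the upper set, at 6.02 ± 1.32 CPM per kb (SD, n = 3), beside Islr at 6.25 ± 3.39 and Pdgfra at 5.85 ± 3.22. In the combination Dpt (161 ± 38.8 CPM per kb, SD, n = 4), Pi16 (124 ± 63.3), Clec3b (114 ± 67.8) and Serpinf1 (84.2 ± 16.4) again led. The plot of CPM by library shows each gene on its own scale.

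**Figure D1:**
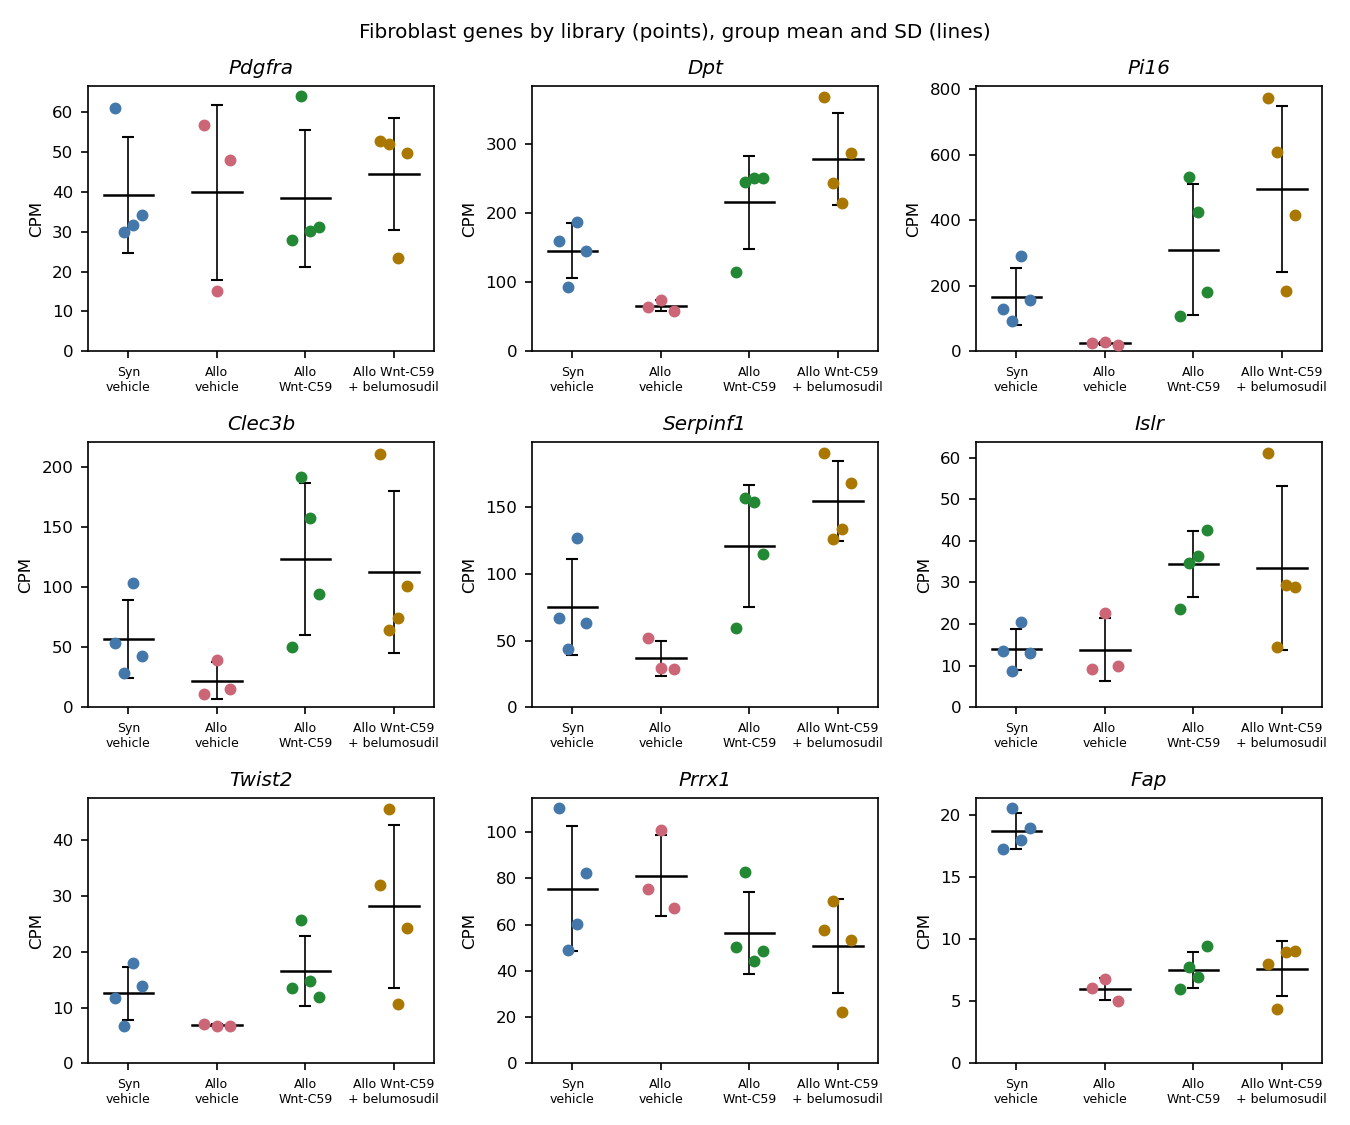
CPM of each of the 9 genes (vertical axis, linear, from 0) in every library of the 4 groups (points, n = 4, 3, 4 and 4), with the group mean and SD as lines. Dpt and Pi16 are lowest in all 3 allogeneic vehicle libraries, Fap is highest in all 4 syngeneic libraries, and the groups of Pdgfra and Prrx1 overlap.

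Allogeneic skin was compared with syngeneic skin under vehicle to see how fibroblast genes stood in the disease. Pi16, Dpt and Fap fell, by 6.94-fold, 2.21-fold and 3.13-fold. No member rose. The remaining 6 did not pass, and among them Pdgfra, Prrx1 and Islr had nearly equal means in both groups. For Pdgfra and Islr the allogeneic means covered unlike libraries. Pdgfra lay at 56.9, 15.1 and 48.0 CPM and Islr at 9.17, 22.6 and 9.92 CPM in allogeneic libraries 1 to 3. The share of members that fell, 3 of 9, stands beside 15.1% of all genes tested that fell and 29.8% that changed in either direction.

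Pi16 lay at 129.8, 91.0, 290.4 and 157 CPM in syngeneic libraries 1 to 4 and at 23.99, 29.3 and 18.8 CPM in allogeneic libraries 1 to 3. Every allogeneic library was below every syngeneic one. The log2 fold change was −2.80 (SE 0.63, edgeR's quasi-likelihood test with Benjamini-Hochberg adjustment, adjusted p = 0.00486). Dpt lay at 159, 92.8, 186 and 145 CPM in syngeneic and at 63.9, 74.6 and 58.8 CPM in allogeneic libraries, again without overlap (log2 fold change −1.15, SE 0.29, edgeR adjusted p = 0.00803). Fap was the most even member in syngeneic skin, at 17.2, 20.5, 18.0 and 19.0 CPM. In allogeneic skin it lay at 6.07, 6.83 and 5.02 CPM (log2 fold change −1.64, SE 0.25, edgeR adjusted p = 0.000278), so the groups were far apart relative to their spread. Groups without overlap, all 3 below, compare with 19.9% of all genes tested whose allogeneic libraries were all below the syngeneic ones.

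Serpinf1, at 66.8, 43.9, 127 and 63.2 CPM in syngeneic and 52.0, 29.3 and 29.04 CPM in allogeneic libraries, missed the threshold (log2 fold change −1.03, SE 0.38, edgeR adjusted p = 0.0555). Clec3b lay at 53.9, 28.98, 104 and 42.4 CPM against 11.5, 39.7 and 14.9 CPM (log2 fold change −1.38, SE 0.62, edgeR adjusted p = 0.113). Allogeneic library 2 was the one inside the syngeneic range, and without it Clec3b passed (log2 fold change −2.10, edgeR adjusted p = 0.0411). For Serpinf1, leaving out either syngeneic library 2 (−1.201, adjusted p = 0.0354) or allogeneic library 1 (−1.37, 0.0363) gave a call. DESeq2 called both (adjusted p = 0.0308 for Clec3b and 0.0211 for Serpinf1).

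Twist2 was at 6.63 to 17.9 CPM in syngeneic skin and at 7.11, 6.71 and 6.71 CPM in allogeneic skin (log2 fold change −0.87, SE 0.43, edgeR adjusted p = 0.139). The allogeneic libraries lay close together near the lowest syngeneic library. Pdgfra, with 39.3 ± 14.6 CPM (SD, n = 4) and 39.98 ± 22.01 CPM (SD, n = 3), had a log2 fold change of 0.03 with a 95% interval from −0.93 to 0.98. The intervals of Prrx1 (0.11, interval −0.65 to 0.87) and Islr (−0.01, interval −0.96 to 0.94) also reached to both sides of no change. For each of these 3 genes, changes within its bounds are not excluded.

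Markers of other cell types moved in this comparison. All 8 leukocyte markers rose, with summed levels of 284 to 479 CPM in syngeneic and 2381 to 2969 CPM in allogeneic skin. Adipocyte markers fell in 3 of 10 cases and otherwise did not pass, with summed levels of 1218 to 2386 CPM against 567 to 1202 CPM. No marker of either list had a group mean of 0; the lowest were Cd8a at 0.146 CPM in syngeneic skin and Lep at 1.65 CPM in allogeneic skin. With the adipocyte score as a covariate Dpt lost its call (−0.996, edgeR adjusted p = 0.0968), while Pi16 and Fap kept theirs. This score separated the groups without overlap, at 6.24 to 7.11 in syngeneic and 4.39 to 5.96 in allogeneic libraries. A leukocyte score separated the groups as well (3.21 to 3.84 in syngeneic against 6.26 to 6.82 in allogeneic libraries). With the leukocyte score as a covariate no gene of the whole table was called. The part of either score in these falls therefore cannot be told apart from the graft.

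Skin after Wnt-C59 was compared with allogeneic vehicle skin for the effect of porcupine inhibition. Pi16 rose by 12.9-fold, Clec3b by 5.62-fold, Serpinf1 by 3.29-fold, Dpt by 3.27-fold, Islr by 2.47-fold and the transcription factor Twist2 by 2.41-fold. Pdgfra, Prrx1 and Fap did not pass, and no member fell. The 6 of 9 members stand beside 24.6% of all genes tested that rose and 50.8% that changed in either direction.

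Pi16 lay at 108, 530.4, 424 and 179.7 CPM in Wnt-C59 libraries 1, 2, 4 and 5, all above the allogeneic vehicle libraries. Its log2 fold change was 3.69 (SE 0.66, edgeR adjusted p = 0.00052). Dpt reached 114, 245, 251 and 249.6 CPM, where library 1 stood apart from 3 nearly equal libraries (log2 fold change 1.71, SE 0.29, edgeR adjusted p = 0.000299). Clec3b lay at 50.7, 192, 158 and 94.9 CPM (log2 fold change 2.49, SE 0.65, edgeR adjusted p = 0.00656). Serpinf1 lay at 59.1, 157, 154 and 114 CPM (log2 fold change 1.72, SE 0.39, edgeR adjusted p = 0.00243). Library 1 was the lowest of its group for Pi16, Dpt, Clec3b and Serpinf1, and yet exceeded every vehicle-treated allogeneic library for each. All 6 members called had Wnt-C59 libraries above all allogeneic vehicle libraries, as did 26.4% of all genes tested.

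Islr lay at 23.6, 34.8, 36.4 and 42.7 CPM, against 9.17, 22.6 and 9.92 CPM in allogeneic vehicle skin (log2 fold change 1.31, SE 0.45, edgeR adjusted p = 0.0275). The lowest treated library was only just above allogeneic library 2. Leaving out allogeneic library 1 (1.08, adjusted p = 0.111) or 3 (1.10, 0.107) ended the call, as did leaving out Wnt-C59 library 4 (1.28, adjusted p = 0.0519) or 5 (1.18, adjusted p = 0.0601). Twist2 lay at 13.6, 25.7, 14.7 and 11.9 CPM (log2 fold change 1.27, SE 0.43, edgeR adjusted p = 0.0242). The Twist2 call also rested on single libraries. It ended when allogeneic library 1 (1.30, adjusted p = 0.0626), 2 (1.25, 0.0661) or 3 (1.24, 0.0746) or Wnt-C59 library 2 (0.97, 0.0763) was left out, and in limma-voom (1.199, 0.0763).

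Pdgfra had 27.99 to 64.2 CPM after Wnt-C59 (log2 fold change −0.06, 95% interval −1.01 to 0.89). Prrx1 had 44.2 to 82.7 CPM, against 67.3 to 101 CPM in allogeneic vehicle skin (−0.52, interval −1.28 to 0.23, edgeR adjusted p = 0.235). Fap lay at 6.00, 7.74, 6.93 and 9.46 CPM, which overlaps the allogeneic vehicle range and stays under all syngeneic libraries (log2 fold change 0.33, SE 0.24, edgeR adjusted p = 0.269).

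The combination of Wnt-C59 and belumosudil was set against the same 3 allogeneic vehicle libraries, so its values are not independent of those above. Again Pi16 (20.6-fold), Clec3b (5.12-fold), Dpt (4.22-fold), Serpinf1 (4.20-fold), Twist2 (4.11-fold) and Islr (2.41-fold) rose, and no member fell. These 6 of 9 stand beside 27.1% of all genes tested that rose and 54.5% that changed in either direction.

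Pi16 lay at 772, 609, 185 and 416 CPM in combination libraries 2, 3, 4 and 5 (log2 fold change 4.36, SE 0.68, edgeR adjusted p = 0.000164). Dpt lay at 368, 243, 214 and 286 CPM (log2 fold change 2.08, SE 0.30, edgeR adjusted p = 6.26e-05). Serpinf1 lay at 190.3, 126, 133 and 168 CPM (log2 fold change 2.07, SE 0.40, edgeR adjusted p = 0.000648). All libraries of these 3 genes exceeded the allogeneic vehicle libraries, and library 2 was the highest for each. Clec3b lay at 211, 64.8, 74.1 and 102 CPM (log2 fold change 2.36, SE 0.65, edgeR adjusted p = 0.00788) and Twist2 at 32.0, 45.6, 10.6 and 24.2 CPM (log2 fold change 2.04, SE 0.44, edgeR adjusted p = 0.00151), both without overlap. These 5 members stand beside 25.6% of all genes tested whose combination libraries were all above.

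Islr lay at 61.0, 14.4, 29.5 and 28.9 CPM, and library 3 fell inside the allogeneic vehicle range (log2 fold change 1.27, SE 0.45, edgeR adjusted p = 0.0292). The call ended when allogeneic library 1 (1.04, adjusted p = 0.113) or 3 (1.08, 0.106) or combination library 2 (0.80, 0.0999) was left out, and when these groups were fitted alone (1.27, 0.0824). Pdgfra (23.5 to 52.8 CPM, log2 fold change 0.16, interval −0.80 to 1.11) and Prrx1 (22.1 to 70.0 CPM, −0.68, interval −1.43 to 0.08) did not pass. Fap lay at 8.03, 4.38, 8.99 and 9.05 CPM (0.35, edgeR adjusted p = 0.235), and without library 3, the lowest, it passed (0.54, adjusted p = 0.0335).

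**Figure D2:**
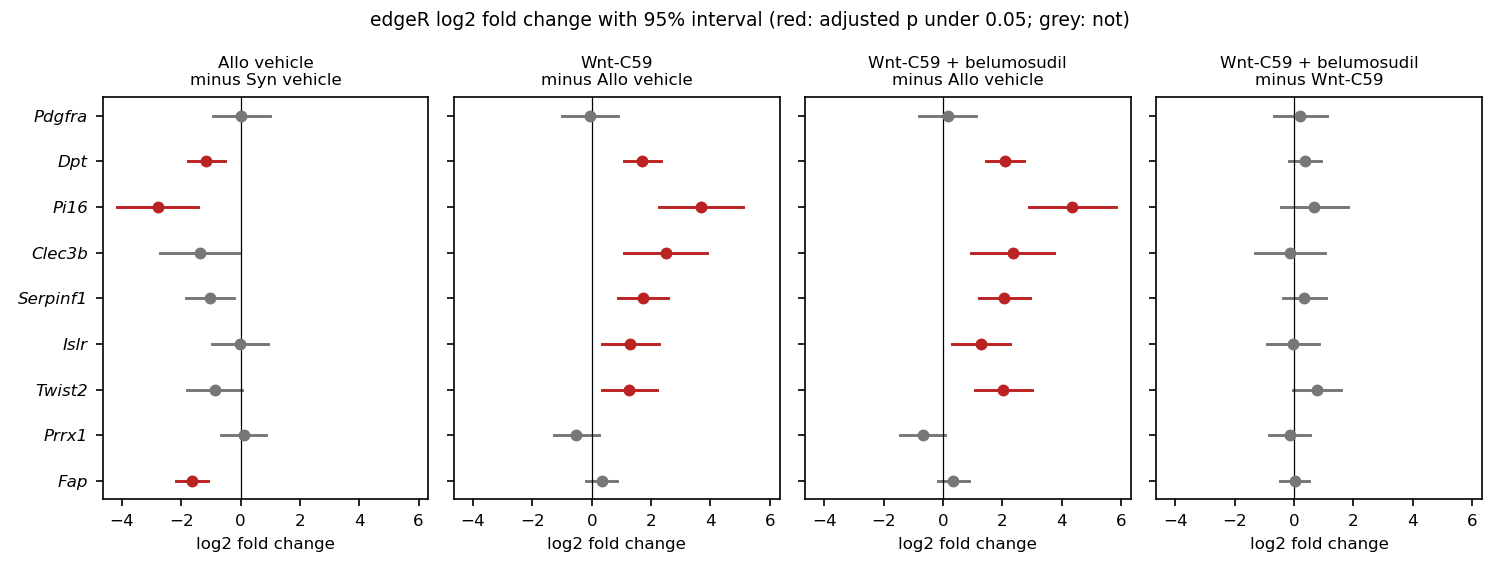
Log2 fold change of each gene (points) with its 95% interval (lines) in the 4 main comparisons, from edgeR's quasi-likelihood fit of all 15 libraries; red marks an adjusted p under 0.05. The 3 red points on the left panel lie below 0, the 6 red points of both middle panels lie above 0, and the right panel holds none.

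Markers of other cells moved with the treatments as well. Adipocyte markers rose, 9 of 10 in each treated group, with summed levels of 1033 to 3691 CPM after Wnt-C59 and 2580 to 3564 CPM in the combination. Leukocyte markers fell, 8 of 8 after Wnt-C59 (771 to 1210 CPM summed) and 6 of 8 in the combination (841 to 1439 CPM). These counts are without removal of the GC trend. With it removed, Ptprc went from −1.97 to −0.98 after Wnt-C59. In the combination Ptprc went from −1.65 to −0.45 and no longer passed (edgeR adjusted p = 0.167). Lyz2 still fell (−1.40 and −1.33), and the adipocyte markers Pparg (1.79 and 1.44) and Fabp4 (2.35 and 2.62) still rose. With the adipocyte score as a covariate Dpt, Pi16 and Serpinf1 kept their rise in both treated groups, and Clec3b, Islr and Twist2 lost it (edgeR adjusted p from 0.0937 to 0.482 after Wnt-C59 and from 0.102 to 0.781 in the combination). With the leukocyte score, Dpt alone kept its call after Wnt-C59, where Pi16 had a log2 fold change of 4.33 (adjusted p = 0.0558), and Dpt, Pi16, Serpinf1 and Twist2 kept theirs in the combination. The leukocyte score separated allogeneic vehicle from both treated groups without overlap, and the adipocyte score did so for the combination. After Wnt-C59 the adipocyte score overlapped that of allogeneic vehicle (5.79 to 7.62 against 4.39 to 5.96). Where a score follows the groups, its part cannot be told apart from the treatment.

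Adding belumosudil to Wnt-C59 was compared with Wnt-C59 alone. None of the 9 genes passed, at a share of 0.231% of all genes tested, and none passed with DESeq2 or limma-voom or had an unadjusted edgeR p under 0.05. The largest differences were 0.77 for Twist2 (95% interval −0.05 to 1.59, edgeR adjusted p = 0.27), 0.67 for Pi16 (−0.46 to 1.80) and 0.37 for Dpt (−0.18 to 0.92). Libraries of both groups overlapped for every member, beside 13.1% of all genes tested whose groups did not overlap. Fap had the narrowest interval, from −0.46 to 0.49 around 0.01, and Clec3b one of the widest, from −1.32 to 1.05 around −0.13. For Dpt the upper bound of 0.92 lay below its log2 fold change of 1.71 for Wnt-C59 against allogeneic vehicle.

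The treated groups were also compared with syngeneic vehicle skin, the level without the allogeneic graft. This comparison crosses the technical difference between treated and vehicle libraries. A member that did not pass is not thereby shown to have returned to that level. After Wnt-C59, Islr was higher (log2 fold change 1.30, SE 0.41, edgeR adjusted p = 0.017) and Fap lower (−1.31, SE 0.22, edgeR adjusted p = 0.000283), 2 of 9 members beside 53.1% of all genes tested, of which 26% were higher and 27% lower. Both calls ended with the GC trend removed (Islr 0.78, adjusted p = 0.116, and Fap −0.43, adjusted p = 0.108). The other 7 did not pass, among them Dpt (0.56, 95% interval 0.01 to 1.12), Pi16 (0.90, −0.24 to 2.03) and Serpinf1 (0.69, −0.05 to 1.43). Islr lost its call without syngeneic library 2 (1.14, adjusted p = 0.0502). Without syngeneic library 3, the highest syngeneic library for Dpt, Clec3b and Serpinf1, these 3 passed too (0.70, 1.57 and 1.06), and without Wnt-C59 library 1 Dpt (0.77) and Serpinf1 (0.91) passed.

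In the combination 5 members were higher than in syngeneic skin and 1 was lower, beside 26.9% and 27.2% of all genes tested. Those higher were Pi16 (log2 fold change 1.57, SE 0.53, edgeR adjusted p = 0.0242), Islr (1.26, adjusted p = 0.019), Twist2 (1.17, adjusted p = 0.0199), Serpinf1 (1.04, adjusted p = 0.0214) and Dpt (0.93, adjusted p = 0.00747). Fap was lower (−1.30, SE 0.22, adjusted p = 0.000251). Dpt and Fap were the only members called whose libraries did not overlap (47.5% of all genes tested), and neither lost its call when any 1 library was left out. After removal of the GC trend Dpt alone kept its call (0.96, adjusted p = 0.00933), and Fap (−0.26, adjusted p = 0.331), Pi16 (1.01, 0.11), Serpinf1 (0.54, 0.192), Islr (0.63, 0.204) and Twist2 (0.80, 0.0946) lost theirs. Pi16 lost it without syngeneic library 1 (1.47), 2 (1.38) or 4 (1.55) or combination library 2 (1.27) or 3 (1.45), Serpinf1 without syngeneic library 1 (0.99), 2 (0.87) or 4 (0.98) or combination library 2 (0.92), Islr without syngeneic library 2 (1.12) or combination library 2 (0.80), and Twist2 without syngeneic library 2 (0.99) or combination library 3 (0.83). Their adjusted p then lay between 0.0518 and 0.0853.

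Fold changes between treated and vehicle skin followed the GC content of the gene. Across 18227 genes, which are not independent replicates, Spearman's rho between GC content and log2 fold change was 0.504 for Wnt-C59 and 0.541 for the combination against allogeneic vehicle, and −0.100 for allogeneic against syngeneic vehicle. Of the 9 members, Clec3b has the highest GC content (60.2% of its longest transcript) and Fap the lowest (39.7%), with Prrx1 at 43.6%, Pdgfra at 48.1%, Dpt at 48.7%, Twist2 at 52.6%, Serpinf1 at 54.4%, Pi16 at 54.9% and Islr at 56.0%, beside a median of 49.7% over all genes tested.

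When the GC trend of each library was removed, Dpt (1.77 and 2.12), Pi16 (3.15 and 3.74) and Serpinf1 (1.23 and 1.51) kept their rise in both treated groups against allogeneic vehicle. Clec3b kept it after Wnt-C59 (1.56, edgeR adjusted p = 0.0402) but not in the combination (1.37, adjusted p = 0.0618), and Twist2 kept it in the combination (1.66, adjusted p = 0.00592) but not after Wnt-C59 (0.95, adjusted p = 0.0785). Islr lost it in both (0.71, adjusted p = 0.195, and 0.57, adjusted p = 0.292). Fap, the protease, then rose in both (1.33, adjusted p = 0.000714, and 1.499, adjusted p = 0.000285). Against syngeneic skin its estimates stayed below 0 but no longer passed (−0.43, adjusted p = 0.108, after Wnt-C59 and −0.26, adjusted p = 0.331, in the combination). Its fall in allogeneic vehicle skin stayed (−1.76, adjusted p = 0.000128). Prrx1 moved to 0.04 after Wnt-C59 and to −0.04 in the combination. Members called were then 5 of 9 in each treated group, beside 18.8% and 20.8% of all genes tested that rose.

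**Figure D3:**
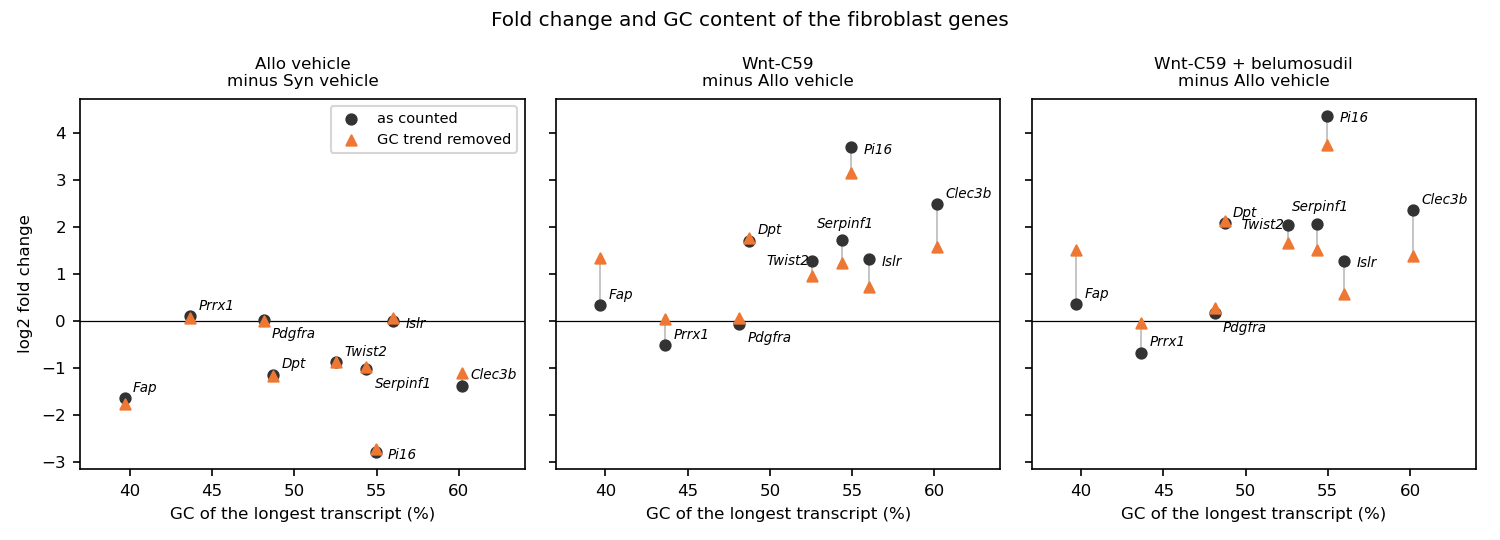
Log2 fold change of the 9 genes (vertical axis) against the GC content of their longest transcript in % (horizontal axis), as counted (circles) and after removal of each library's GC trend (triangles). In both treated panels Fap, at 39.7% GC, moves up and Clec3b, at 60.2% GC, moves down, while Dpt hardly moves.

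The members did not vary as 1 set. Over the 15 libraries, Pearson's r of log2 CPM was 0.95 between Dpt and Pi16 and between Dpt and Serpinf1, and 0.92 between Dpt and Clec3b. These libraries share the group differences described above. After each group's mean was taken off, r remained at 0.79 for Dpt with Pi16, 0.81 for Dpt with Serpinf1, 0.83 for Dpt with Clec3b and 0.85 for Clec3b with Islr. Prrx1 went with Twist2 within groups (0.78) but not over all libraries (0.00), and with Pdgfra at 0.51 and 0.34. Fap stood apart over all libraries, at 0.08 with Dpt and 0.06 with Prrx1. All values are descriptions over 15 libraries that also share their scaling.

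**Figure D4:**
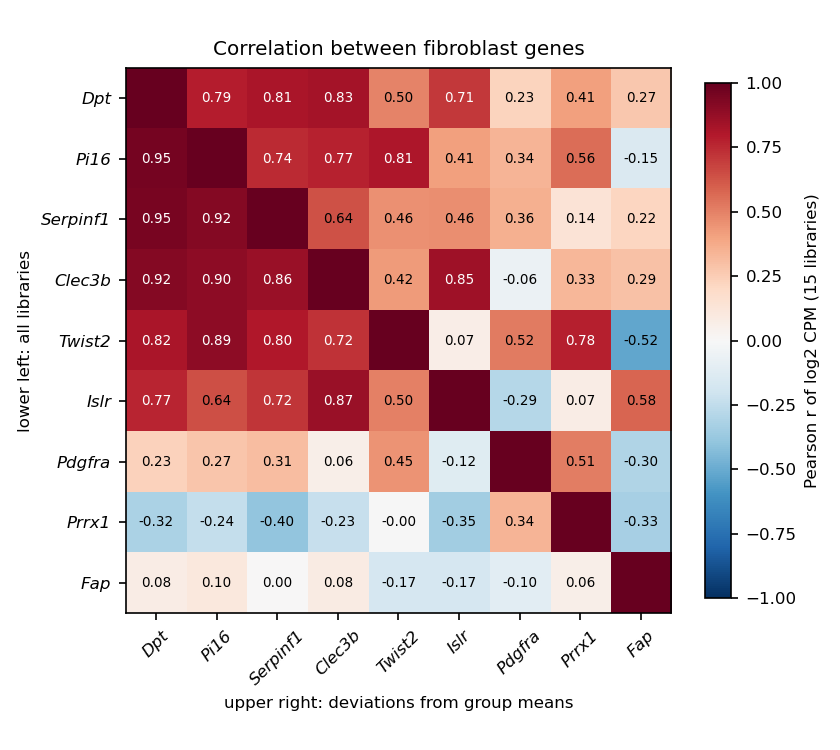
Pearson's r of log2 CPM between the 9 genes over 15 libraries, below the diagonal over all libraries and above it after each group's mean was taken off; colour runs from −1 (blue) to 1 (red). Dpt, Pi16, Serpinf1 and Clec3b form a red block on both sides (0.86 to 0.95 below, 0.64 to 0.83 above), and Prrx1 and Fap are pale or blue with most others below the diagonal.

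The mean profile of the 9 genes, each centred on its mean over all libraries, lay between −1.17 and −0.85 log2 units in allogeneic vehicle libraries, between −0.60 and 0.39 in syngeneic ones, between −0.33 and 0.83 after Wnt-C59 and between −0.06 and 1.04 in the combination. Other genes averaging 5 CPM or more numbered 12053, and those most like this profile over the 15 libraries were Pcolce2 (Pearson's r 0.96), an enhancer of procollagen processing, Plac9a (0.96), Efemp1 (0.95), a fibulin of the extracellular matrix, Rcn3 (0.95), a calcium-binding protein of the endoplasmic reticulum, and Thbs3 (0.94), a thrombospondin. These were chosen by their likeness, so the values carry no test.

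The lists of related genes are read beside all genes tested. In allogeneic against syngeneic skin 14.6% of all genes rose and 15.1% fell. After Wnt-C59 24.6% rose and 26.2% fell against allogeneic vehicle, and in the combination 27.1% rose and 27.4% fell. These shares were 18.8% and 21.8% after Wnt-C59 and 20.8% and 22.8% in the combination when the GC trend was removed. A list's share near these values is no result about the list.

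Of 18 further dermal fibroblast markers, 6 fell and none rose in allogeneic against syngeneic skin (median log2 fold change −0.55, beside −0.07 over all genes tested). The microfibril gene Mfap4 stood at 83.2 ± 32.0 CPM in syngeneic libraries (SD, n = 4) and at 9.09 ± 2.93 CPM in allogeneic ones (SD, n = 3), a log2 fold change of −3.19 (edgeR adjusted p = 0.000525). Ccdc80, which encodes a matrix protein, had −2.36 (adjusted p = 0.000254). After Wnt-C59 11 of the 18 rose, 7 did not pass and none fell (median 1.30, beside 0.00 over all genes). In the combination 13 rose, 5 did not pass and none fell (median 1.37, beside 0.01). Mfap4 rose to 110 ± 79.3 CPM after Wnt-C59 (3.596, edgeR adjusted p = 0.000118) and to 175 ± 21.1 CPM in the combination (4.26, adjusted p = 3.49e-05), and the actin-severing protein gelsolin, Gsn, rose by 2.43 and 2.53 (1.76 in each with the GC trend removed). With the GC trend removed 9 and 10 of the 18 rose (medians 0.83 and 0.97).

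The 12 adventitial fibroblast genes, the class in which Pi16 is counted, did not move as one. In allogeneic skin 4 rose and 3 fell, with Ly6a, an antigen that interferon also induces, up by 1.82 (edgeR adjusted p = 0.00382) and the cytoskeletal regulator Limch1 up by 1.44 (adjusted p = 0.00567). After Wnt-C59 2 rose, Cd248 (2.37, adjusted p = 0.000717) and Cd34 (1.83, adjusted p = 0.000787), surface glycoproteins of stromal and vascular cells, and 3 fell. With the GC trend removed Cd248 had 1.37 and Cd34 2.51, and 3 rose and 2 fell. In the combination 4 rose and 2 fell, with Cd248 up by 2.80 (1.77 with the GC trend removed) and Limch1 down by 2.36 on the log2 scale. The medians were −0.14, −0.06 and 0.42, and the median after Wnt-C59 became 0.15 with the GC trend removed.

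Around Pdgfra, the growth factor Pdgfc had 6.67 ± 1.16 CPM in syngeneic (SD, n = 4) and 24.1 ± 5.51 CPM in allogeneic skin (SD, n = 3). This rise (log2 fold change 1.85, edgeR adjusted p = 0.000185) was the 1 call among 5 genes, the PDGF ligands and the beta receptor. It fell after Wnt-C59 by 1.22 (adjusted p = 0.00161) and in the combination by 1.46 (adjusted p = 0.000373) on the log2 scale. Pdgfb was higher in both treated groups (0.92 and 0.81), but not with the GC trend removed (0.02 and −0.16). Counts up and down were 3 and 1 after Wnt-C59 and 2 and 2 in the combination. With the GC trend removed they were 0 and 1 in both.

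Mesenchymal transcription factors other than Twist2 and Prrx1 went both ways. Of 13 tested of 14 (Tcf21 was too low to be tested), 3 rose and 2 fell in allogeneic skin. Zeb2, a zinc-finger repressor that leukocytes also express, rose by 1.22 (edgeR adjusted p = 0.0016), and Prrx2, the closest relative of Prrx1, fell, with −1.402 (adjusted p = 0.00445). Prrx1 itself had 0.11 in the same comparison. After Wnt-C59 6 rose and 3 fell, and in the combination 6 rose and 4 fell. Zeb2 fell in both as counted (−2.04 and −2.42) and with the GC trend removed (−1.14 and −1.37). Tcf4, a partner of TWIST proteins, fell as counted (−1.23 and −1.51), and with the GC trend removed it did not pass after Wnt-C59 (−0.35, adjusted p = 0.0984) and had −0.50 in the combination (adjusted p = 0.0235). With that trend removed the counts were 4 up and 1 down after Wnt-C59 and 2 up and 3 down in the combination.

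Of 12 genes of activated fibroblasts, the class in which Fap is counted, 2 rose and 1 fell in allogeneic skin. Inhba, the beta A subunit of activin, rose by 2.34 (edgeR adjusted p = 0.0178), with uneven allogeneic libraries at 47.8 ± 41.2 CPM (SD, n = 3). Tagln, an actin-binding protein of contractile cells, fell, with −0.85 (adjusted p = 0.012). After Wnt-C59 4 rose and 3 fell, with Inhba at −4.36 (−3.54 with the GC trend removed) and the smooth muscle actin Acta2 up by 1.55 (adjusted p = 0.000623). In the combination 5 rose and 1 fell, with Comp, a matrix protein, up by 2.99 (2.04 with the GC trend removed) and Acta2 up by 1.41. Acta2 and Tagln are also genes of smooth muscle, whose 8 other markers split 4 up and 2 down after Wnt-C59 and 2 up and 2 down in the combination (3 and 2, and 2 and 4, with the GC trend removed). The median of the 12 was −0.43, −0.32 and 0.61 in these comparisons, and 0.33 after Wnt-C59 with the GC trend removed.

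Of 12 chemokines and growth factors of stromal cells, 6 rose and 2 fell in allogeneic skin. Among those called at 5 CPM or more, the lowest adjusted p belonged to Ccl2 (2.87, edgeR adjusted p = 0.000877) and Ccl11 (2.24, adjusted p = 0.00102), which attract monocytes and eosinophils. After Wnt-C59 2 rose and 5 fell, and in the combination 3 rose and 3 fell. Ccl19, a chemokine of lymphoid stroma, rose in both (3.93 and 4.54, or 3.20 and 3.74 with the GC trend removed). It had 0.688 ± 0.243 CPM in allogeneic vehicle (SD, n = 3), 10.6 ± 6.81 CPM after Wnt-C59 and 16.1 ± 9.02 CPM in the combination (SD, n = 4 each). Igf1 fell after Wnt-C59 (−1.27), but not with the GC trend removed (−0.13, adjusted p = 0.686). With that trend removed 2 rose and 3 fell after Wnt-C59, and 4 rose and none fell in the combination.

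Of 10 genes of the dermal papilla and sheath, the fibroblasts of the hair follicle, 6 fell and none rose in allogeneic skin (median −1.75). Hhip, a Hedgehog-binding protein, had 12.9 ± 6.95 CPM in syngeneic and 0.312 ± 0.0767 CPM in allogeneic skin (log2 fold change −5.34, edgeR adjusted p = 0.000207), and Corin, a serine protease of the papilla, had −4.48 (adjusted p = 0.00199). After Wnt-C59 2 rose and 1 fell, and in the combination 4 rose and none fell. Bmp4 rose in both (2.18 and 2.38), as did Alpl (2.49 and 4.76, or 1.85 and 4.01 with the GC trend removed). The combination libraries of Alpl were uneven, at 93.5 ± 98.2 CPM (SD, n = 4). With the GC trend removed 5 of the 10 genes rose and none fell in each treated group. In the combination against Wnt-C59 no gene of these 7 lists passed. Among their lowest adjusted p there were 0.0669 for the chemokine Cxcl14 (log2 fold change 1.35) and 0.0692 for Tnc (3.48), a matrix glycoprotein whose combination mean was 518 ± 619 CPM (SD, n = 4).

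**Figure D5:**
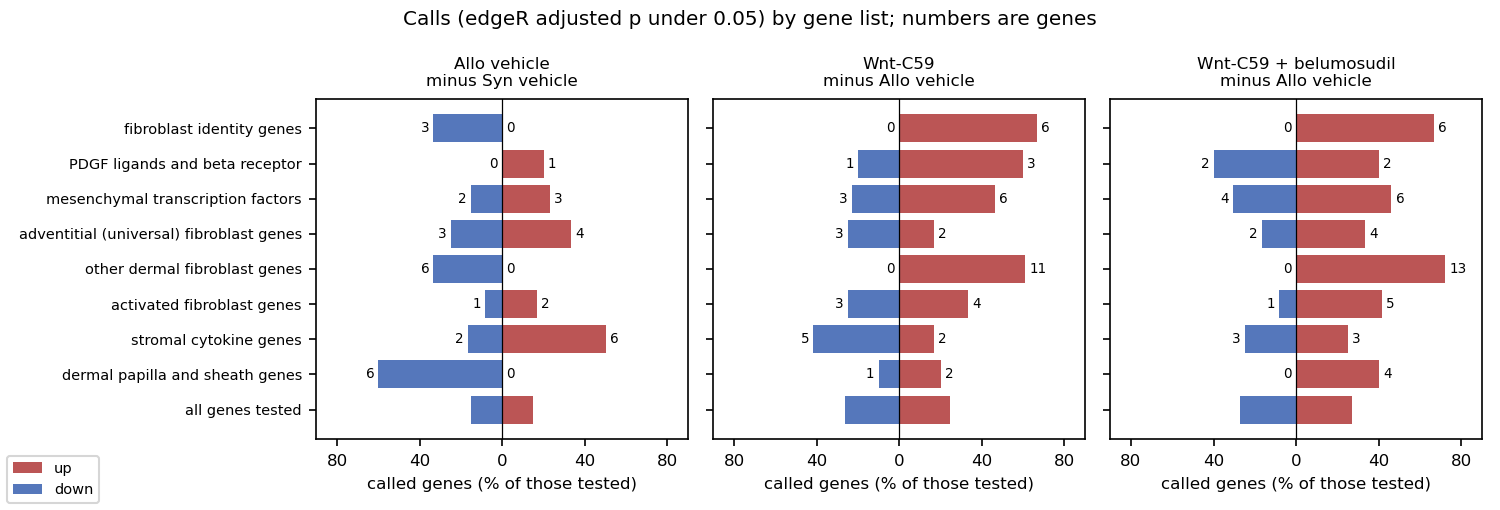
Share of the tested genes of each list, in %, that rose (red, right of 0) or fell (blue, left of 0) at an edgeR adjusted p under 0.05, with the number of genes beside each bar and the share over all genes tested in the lowest bar. The 9 fibroblast genes and the 18 other dermal fibroblast genes have bars on 1 side in each panel in which any was called, while lists such as the mesenchymal transcription factors and the adventitial genes have bars on both.

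Of the markers of cells other than fibroblasts, adipocytes and leukocytes, 7 of 8 endothelial, 3 of 8 pericyte and smooth muscle, 2 of 8 keratinocyte and 2 of 6 Schwann cell markers rose in allogeneic skin, and 1 pericyte marker fell. Pecam1 of endothelium rose by 1.54, Rgs5 of pericytes rose by 1.44, and Cspg4 of pericytes fell by 1.91 on the log2 scale. After Wnt-C59 3 endothelial, 3 keratinocyte and 3 Schwann cell markers rose, and 1 keratinocyte and 1 Schwann cell marker fell. In the combination 2 rose and 1 fell in each of these 3 lists. With the GC trend removed, 2 endothelial, 1 keratinocyte and 1 Schwann cell marker rose and 2 keratinocyte markers fell after Wnt-C59. In the combination 2 endothelial markers then fell and none rose, and 1 rose and 1 fell in each of the keratinocyte and Schwann cell lists. None of the 10 skeletal muscle markers passed edgeR's test in any of the comparisons, and 3 had an unadjusted p under 0.05, all in Wnt-C59 against syngeneic skin. With a skeletal muscle score as a covariate, no called member turned to the other direction. The part of the endothelial, pericyte, keratinocyte and Schwann cell markers in the values of the 9 genes was not tested.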

How the data were processed

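RNA of whole mouse skin was sequenced in 15 libraries of 4 groups. The table deposited by the authors holds estimated counts per gene, with fractions and no scaling, under Ensembl identifiers per the file headers. Per the submitters' processing notes, build GRCm39 was used with HISAT2, featureCounts, FastQC and Trim Galore, and no version is given. Which tool wrote the table and whether counting used the strand are not given in the sources used here, so Pdgfra, Dpt, Pi16, Islr, Twist2 and Prrx1, which overlap another gene in GENCODE M21, are uncertain to that extent. Vehicle columns carry the titles' numbers. Treated columns carry numbers of their own, used here, and columns with a 2-letter code were assigned to the combination by elimination.

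Counts were rounded and fitted with edgeR 4.0.16 in R 4.3.3 (TMM, filterByExpr by group, robust quasi-likelihood fit to 15 libraries, group means without covariates). Genes were called at a Benjamini-Hochberg adjusted p under 0.05 over 18651 genes. CPM refer to TMM-scaled library sizes, and log2 CPM used a prior count of 2. GC content and length are those of the longest GENCODE M21 transcript (build GRCm38, used for symbols and such properties), and the GC trend was removed by a lowess offset per library. On simulated counts with known 4-fold changes the same steps recovered 64.2% for allogeneic against syngeneic (18167 genes run), 58.4% for Wnt-C59 against allogeneic (18159) and 68.0% for the combination against allogeneic (18112), and of 2-fold changes 28.7%, 17.2% and 22.7%.

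Named genes were all 9 members and, from each further list, at most 2 called genes per comparison by adjusted p with a mean of at least 5 CPM, or the best 1 where none was called, and the 5 genes most like the members' mean profile. The members and lists were chosen with earlier results of these data known. Same-numbered vehicle libraries did not deviate together (r −0.05, −0.14 and 0.01), so numbers were not treated as pairs. Alternatives were DESeq2 1.42.0, its size factors, limma-voom (limma 3.58.1), no filter, each library left out, each pair of groups alone, GC or GC and length trends removed, cell scores as covariates and, for vehicle libraries, a replicate block.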

Additional observations from a re-analysis of the deposited data

Results flagged for a closer look

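Of 27 sets of 4 libraries (9 genes in the 3 groups with 4 libraries), 5 held 1 library far from the others, where chance gives about 1 in 20. Pdgfra was involved in 3 of them. Its level was 61.0 CPM in syngeneic library 1, against 30.1 to 34.3 CPM in the others, and 64.2 CPM in Wnt-C59 library 2, against 27.99 to 31.2 CPM. In combination library 4 Pdgfra was low, at 23.5 CPM against 49.8 to 52.8 CPM. Dpt was low in Wnt-C59 library 1, at 114 CPM against 245 to 251 CPM. Prrx1 was high in Wnt-C59 library 2, at 82.7 CPM against 44.2 to 50.3 CPM, the same library that was high for Pdgfra. Allogeneic vehicle, with 3 libraries, was not examined in this way.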

How the results depend on the processing

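For allogeneic against syngeneic skin, 3 of 9 members were called, 3 to 4 when any library was left out, 5 with DESeq2 and 0 with the leukocyte score as a covariate. The replicate block called 2 (Dpt lost its call, −1.09, adjusted p = 0.0562), and numbers did not pair the libraries. No block was possible for treated libraries, whose columns carry no title numbers. For Wnt-C59 against allogeneic skin, 6 were called, 4 to 6 with a library left out, 3 with the adipocyte score and 1 with the leukocyte score. For the combination against allogeneic skin, 6 were called, 5 to 7 with a library left out and 3 with the adipocyte score. Against Wnt-C59 alone, the combination had 0 under all 18 alternatives. Wnt-C59 against syngeneic skin gave 2, 1 to 5 with a library left out, 0 with the GC trend removed, 1 with GC and length trends removed and 0 with the leukocyte score. The combination against syngeneic skin gave 6, 2 to 6 with a library left out, 1 with either trend removal, 3 with the adipocyte score and 0 with the leukocyte score, under which Twist2 turned to −0.40 (adjusted p = 0.916). The cause of these differences was not tested. DESeq2 size factors in edgeR left all 6 counts as they were. The GC and length removal and the leukocyte score were added after seeing the data. With 3 or 4 libraries a group, most 2-fold changes in the simulated counts were missed. Far fewer genes were changed there than were called here between allogeneic vehicle and the other groups. Those shares therefore do not carry over to these comparisons, in which changes near 2-fold were called, such as Dpt at 2.21-fold.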
